A study of Mus musculus with 51 samples.

Results

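The comparison set the lowest spiked amount of the series, 0.025 pmol per gene, against unspiked RNA on spotted 2-colour arrays. Its members were chosen by their titles: the 3 arrays titled 0.025 pmol and the 6 titled 0 pmol, 9 of the 51 arrays in all. By its title the series evaluates methods for finding changed genes, and it covers 11 amounts between 0 and 2 pmol. On the 0.025 pmol arrays the RNA of channel 1 carried 100 added genes and that of channel 2 another 100, each at 0.025 pmol. On the 0 pmol arrays neither channel carried any. Both channels of every array held total RNA of CRL1606, a mouse hybridoma made by fusing spleen cells of immunised BALB/c mice with the myeloma P3-X63-Ag8. It secretes an antibody against human fibronectin and was grown in serum-free suspension culture. All arrays therefore share 1 cell line. The labels do not say whether replicates came from separate cultures, so that p-values cover array-to-array spread that may be only technical.

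Each value is a log2 ratio of the 2 channels, and its numerator channel is not stated in the sources used here. Ratios are therefore given by sign alone, without naming the brighter channel. Because both channels held the same hybridoma RNA, a ratio carries no expression level of a gene, so the identity of the cells could not be checked against markers of plasma cells or of other types. Arrays were centred on their own median, the 2 spots of each probe were averaged, and the 7920 probes outside the control positions are called features.

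A spike-in experiment adds known transcripts to a common RNA background, so that a gene added to 1 channel moves the ratio of its own probe while the probes of all other genes compare the RNA with itself. Among the genes that the results turn on, Tec encodes a non-receptor tyrosine kinase that signals downstream of antigen and cytokine receptors in lymphocytes. Prkaca encodes a catalytic subunit of protein kinase A, the kinase released by cyclic AMP, and Zfp292 encodes a large zinc finger protein. They are described here as printed probes, and a ratio is no measure of their expression in the hybridoma.

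The 3 arrays at 0.025 pmol measured between 16477 and 16730 of the 16896 spots, and the 6 at 0 pmol between 15990 and 16746. The 2 spots of each probe correlated across probes with r of 0.887 to 0.939 at 0.025 pmol and of 0.617 to 0.805 at 0 pmol. The 0 pmol arrays fell into sets of 3. Replicates 4 to 6 correlated with each other across features at r of 0.723 to 0.754 and replicates 1 to 3 at 0.308 to 0.446, while pairs across the 2 sets reached 0.185 to 0.314. The 0.025 pmol arrays correlated with each other at r of 0.639 to 0.794, with 0 pmol replicates 1 to 3 at 0.146 to 0.335 and with replicates 4 to 6 at 0.300 to 0.428. Features are not independent replicates, and these correlations are descriptions of the arrays. Against 0 pmol replicates 4 to 6 alone the main count of changed features given below was 427, and between replicates 1 to 3 of both groups it was 310.

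Names of the spiked genes were not among the sources used here. As stand-ins, 100 positive and 100 negative candidates were taken from the 3 arrays at 2 pmol alone, as the highest and lowest mean ratios among features measured on all 3 with the same sign on each. The last positive candidate had a mean of 3.99 at 2 pmol, and the next feature, not taken, had 3.89. On the negative side the values just inside and outside were -2.44 and -2.43. No array at 0.025 or 0 pmol took part in that choice. A gene symbol was known for 73 of the positive and 77 of the negative candidates.

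At 0.025 pmol the candidates of both signs stood apart on every array. The median ratio of the positive candidates was 2.63, 2.59 and 3.39 on replicates 1 to 3, and that of the negative candidates -1.85, -3.70 and -2.09. On the 6 arrays at 0 pmol the medians of both sets lay between -0.02 and 0.31. The candidate separation, which is the positive median minus the negative one divided by 2, was 2.24, 3.15 and 2.74 at 0.025 pmol. At 0 pmol its lowest, median and highest values were -0.02, 0.04 and 0.09. The groups did not overlap. On all 3 arrays at 0.025 pmol, 91 positive and 80 negative candidates kept their sign, and 77 and 65 lay at least 1 log2 unit from 0 on each. On all 6 arrays at 0 pmol, 36 and 16 had that sign throughout and 0 lay as far out.

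**Figure D1:**
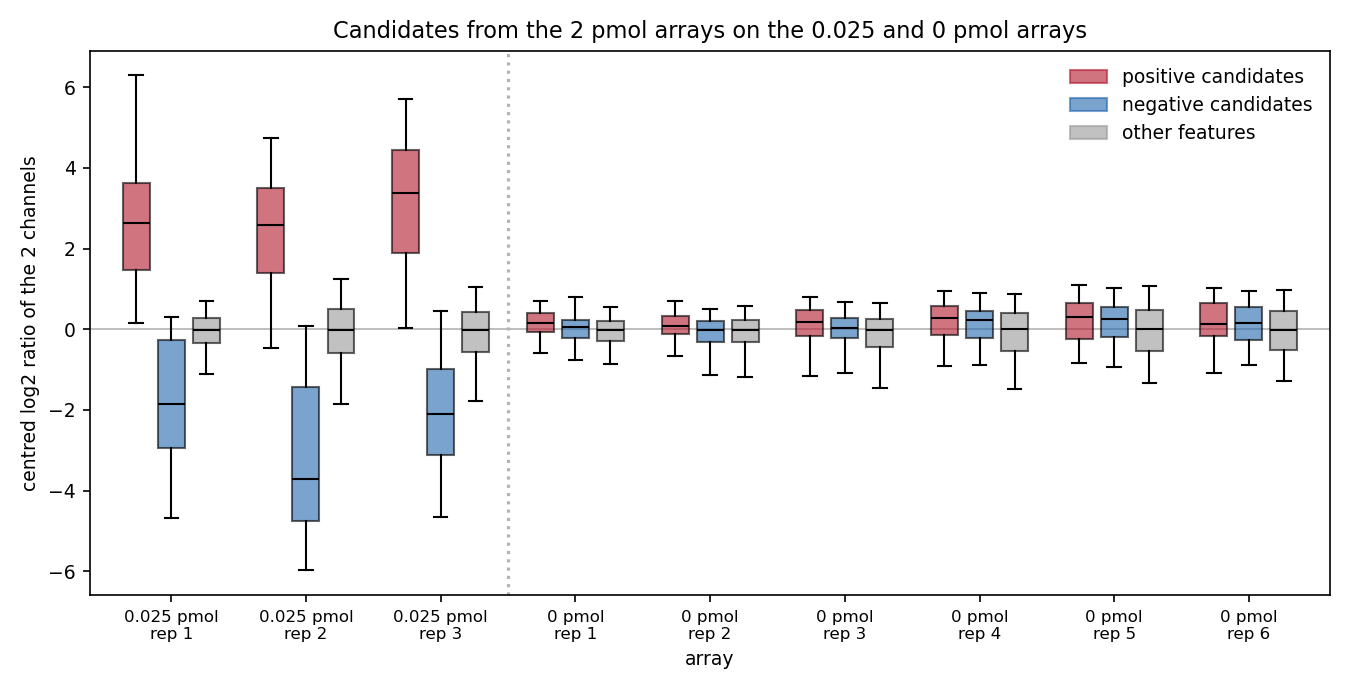
Centred log2 ratio (vertical axis) of the 100 positive candidates, the 100 negative candidates and all other features on each of the 9 arrays. Boxes span the quartiles with the median as a line, and whiskers run from the 5th to the 95th percentile. The positive medians lie at 2.59 to 3.39 on the 3 arrays at 0.025 pmol, and no candidate median exceeds 0.31 on the arrays at 0 pmol.

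Across all features, limma called 394 of the 7904 tested at a Benjamini-Hochberg adjusted p under 0.05, which is 4.98%. The difference was positive for 132 of them (1.67%) and negative for 262 (3.31%). Of the 200 candidates, 134 were called with the sign they had at 2 pmol, which is 67%: 71 positive and 63 negative ones. The median difference was 2.67 over the positive candidates and -2.55 over the negative ones, against 0.04 over all features tested. In 1029 features (13%) the 3 arrays at 0.025 pmol all lay beyond all measured arrays at 0 pmol, above in 571 (7.22%) and below in 458 (5.79%). That held for 85 positive candidates, above, and 76 negative candidates, below. Without centring, where the mean array median was -1.27 at 0.025 pmol and -1.95 at 0 pmol, 136 features were called, 94 positive and 42 negative. When each array was also scaled to one spread, 74 features and 20 candidates were called. Without 0.025 pmol replicate 3 the count of all features was 204, 59 positive and 145 negative, and without replicate 2 it was 305, 148 positive and 157 negative. With only the arrays of the 2 groups in the fit it was 417, 198 positive and 219 negative. With array quality weights it was 495, 251 positive and 244 negative. The excess of negative calls thus varied with the settings.

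The largest positive difference with a known gene belonged to Zfp292 at spot 12102. Its log2 ratio was 6.88, 6.69 and 7.81 on the 3 arrays at 0.025 pmol, and at 0 pmol the lowest, median and highest values were -0.998, -0.48 and -0.20. The groups lay far apart, with a difference of 7.67 and a standard error of 0.91 (limma adjusted p = 3.40e-07), which is 204-fold on the ratio scale. Galnt13, a transferase for the first sugar of mucin-type O-glycans, had ratios of 7.06, 7.27 and 6.51 at 0.025 pmol, against -1.21, -0.38 and -0.11 as the lowest, median and highest of 5 measured arrays at 0 pmol. The groups did not overlap, and its difference was 7.57 with a standard error of 0.65 (limma adjusted p = 4.85e-11). Mreg, melanoregulin, which acts in the transport of pigment organelles, reached 7.21, 4.71 and 5.71 at 0.025 pmol, against -0.18, 0.04 and 0.33 as lowest, median and highest at 0 pmol. The gap between its groups was wider than the spread in either, with a difference of 5.81 and a standard error of 0.72.

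Other positive genes were far from the 0 pmol arrays but varied more between replicates. Tlr1, a receptor for bacterial lipopeptides, had ratios of 6.29, 1.66 and 4.73 at 0.025 pmol, against -1.77 to -0.32 on 5 arrays at 0 pmol. Replicate 2 was the low array there, and the difference was 5.08 with a standard error of 0.80. Cdkn2b, the cell cycle inhibitor p15, had 4.31, 4.42 and 5.56 at 0.025 pmol, against -0.44 to -0.09 at 0 pmol, a difference of 5.03. Its replicates 1 and 2 were nearly equal and replicate 3 was the highest. Cald1, the actin-binding caldesmon, had 3.11, 3.72 and 4.15 at 0.025 pmol, against -2.82, -1.17 and -0.13 as the lowest, median and highest at 0 pmol. Part of its difference of 4.99 came from the negative ratios without spike, since its mean was 3.66 at 0.025 pmol and -1.33 at 0 pmol.

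The positive genes that followed had differences between 4.34 and 4.95, all with arrays that did not overlap. They were Cltb, a clathrin light chain (4.95), Slc2a5, the fructose transporter (4.92), Nkain2, a membrane protein that binds the sodium pump (4.72), Sspn, a member of the dystrophin complex (4.67), Trmt61a, a tRNA methyltransferase (4.40), and Tcea3, a transcription elongation factor (4.34). Their limma adjusted p-values lay between 2.00e-06 and 0.000921. With scaled arrays the calls of Cltb (adjusted p = 0.152) and Nkain2 (adjusted p = 0.113) were lost. The features without a symbol at spots 8362 and 8280 differed by 8.06 and 4.67. On the arrays of 0.025 to 1 pmol, Cltb had a positive ratio on 41 of 42 and the other 13 of these 14 positive features on each array with a measurement.

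Tec led the negative side. Its ratio was -5.20, -6.93 and -6.41 on the 3 arrays at 0.025 pmol, against -2.34, -0.68 and -0.25 as the lowest, median and highest at 0 pmol. The groups did not overlap, although Tec was also negative on all 6 arrays at 0 pmol, and the difference was -5.19 with a standard error of 0.73 (limma adjusted p = 5.27e-06), or 36.5-fold. Its call was lost when arrays were scaled to one spread (-4.07, adjusted p = 0.0742). Prkaca had ratios of -3.16, -5.34 and -4.83 at 0.025 pmol, against 0.31, 0.55 and 0.78 as the lowest, median and highest at 0 pmol. Here the sign itself differed between the groups, and the difference was -5.00 with a standard error of 0.73 (limma adjusted p = 9.20e-06), or 31.9-fold. Nagk, the kinase that salvages N-acetylglucosamine, had -4.56, -6.23 and -4.09 at 0.025 pmol, against -0.42, 0.05 and 0.45 as the lowest, median and highest at 0 pmol. Its difference was -4.99 with a standard error of 0.65.

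In Tec, Prkaca and Nagk replicate 2 at 0.025 pmol was the most negative array, as it was for the median negative candidate. Ms4a4b, a membrane protein of lymphocytes, also had its lowest value there, with -5.50, -6.91 and -4.93 at 0.025 pmol, against -1.89 to -0.16 at 0 pmol (difference -4.91). Large2, a glycosyltransferase that modifies dystroglycan, did not: its ratios of -4.63, -4.66 and -4.55 at 0.025 pmol were nearly equal, against -0.28 to 0.40 at 0 pmol (difference -4.56). The other negative genes with a known role were Slc25a44, a mitochondrial carrier of branched-chain amino acids (-4.97), Slc7a1, the cationic amino acid transporter (-4.43), the zinc finger protein Zfp330 (-4.43) and Ascc3, a helicase used in DNA alkylation repair (-4.35). The named loci 2210016L21Rik (-4.94) and 0610010F05Rik (-4.30) completed the list. In all of these the 3 arrays at 0.025 pmol lay below every measured array at 0 pmol. With scaled arrays the limma calls of Ms4a4b, Large2, Slc25a44, Zfp330, Ascc3, 2210016L21Rik and 0610010F05Rik were lost, with adjusted p-values between 0.0552 and 0.156, as was that of Fem1c at spot 15721 (0.0821). The call of Large2 was also lost with values at the upper limit kept (0.0946) and with a minimum size of 1 log2 unit (0.122).

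**Figure D2:**
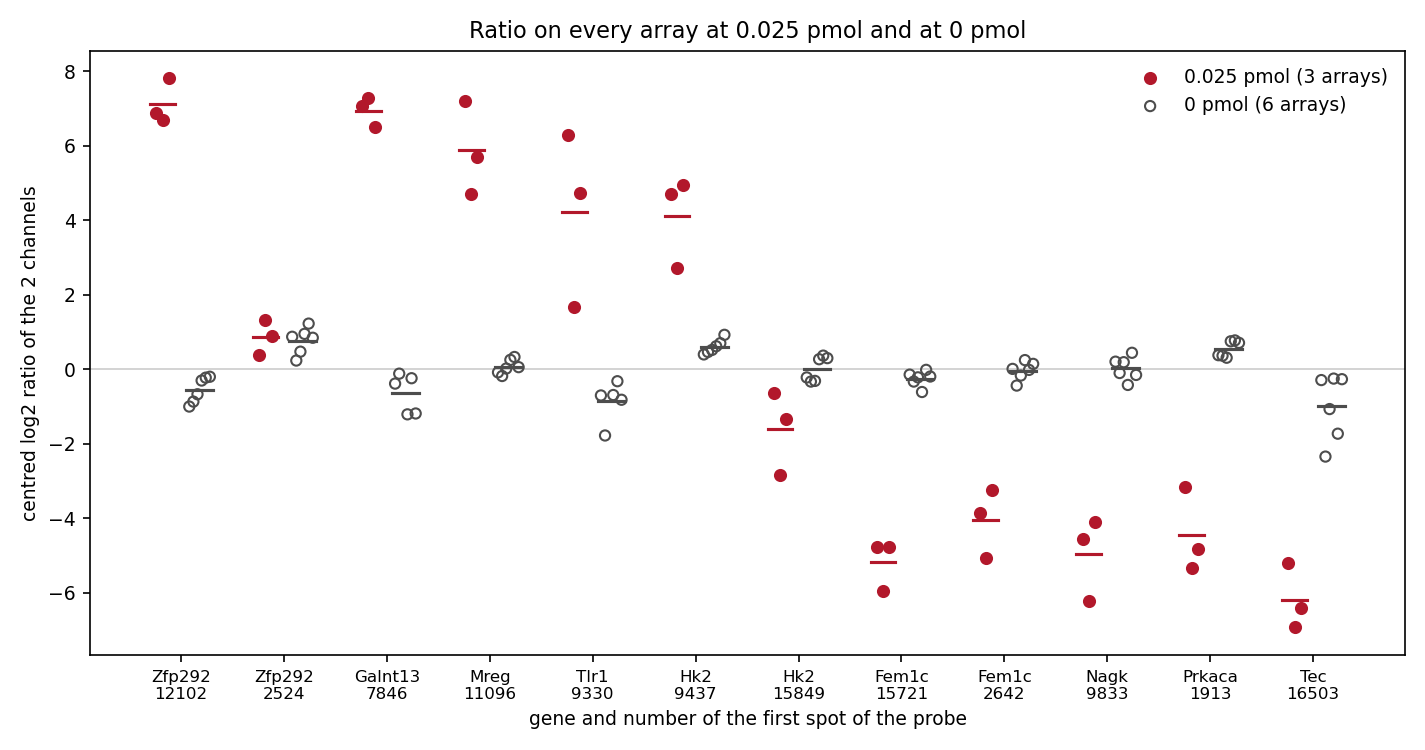
Centred log2 ratio (vertical axis) of 12 probes on the 3 arrays at 0.025 pmol (filled) and the 6 at 0 pmol (open), with the group means as short lines. Each probe is named by gene and first spot. The probe of Zfp292 at spot 12102 reads 6.69 to 7.81 at 0.025 pmol while the probe of the same gene at spot 2524 overlaps between the groups, and the 2 probes of Hk2 stand on opposite sides of 0.

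Probes of the same gene could differ. Zfp292 has a second probe, at spot 2524, that had ratios of 0.39, 1.34 and 0.90 at 0.025 pmol, against 0.24, 0.86 and 1.23 as the lowest, median and highest at 0 pmol. The groups overlapped, and its difference of 0.10 with a standard error of 0.35 did not pass (limma adjusted p = 0.930). Fem1c, which recruits substrates to a cullin ubiquitin ligase, was called at both of its probes. The probe at spot 15721 had -4.78, -5.94 and -4.76 at 0.025 pmol, against -0.61 to -0.01 at 0 pmol, and the one at spot 2642 had -3.86, -5.07 and -3.23 at 0.025 pmol, against -0.43 to 0.25 at 0 pmol. Hk2, a hexokinase that starts glycolysis, was called with opposite signs. At spot 9437 its ratios were 4.70, 2.72 and 4.95 at 0.025 pmol, against 0.40 to 0.93 at 0 pmol (difference 3.51, limma adjusted p = 1.49e-05). At spot 15849 they were -0.63, -2.83 and -1.32 at 0.025 pmol, against -0.33 to 0.37 at 0 pmol (difference -1.61, limma adjusted p = 0.0416). The call at spot 15849 rests on single arrays: it was lost without 0.025 pmol replicate 2 (-0.99, adjusted p = 0.411), without replicate 3 (0.106) and without 0 pmol replicate 4, 5 or 6 (0.0706 to 0.0769). With scaled arrays both calls of Hk2 were lost (limma adjusted p = 0.0774 at spot 9437 and 0.437 at spot 15849). Both probes of Hk2 were also candidates at 2 pmol, 1 of each sign. Cald1 too had candidates of both signs, the called positive one at spot 757 and an uncalled negative one at spot 12991.

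Over all features tested 4.98% were called. Of 843 genes with 2 or more features, 78 had a called feature, 74 of them just 1 and 4 of them 2. The 4 were Fem1c, Hk2, the phosphatase regulator Ppp1r10 and the sphingomyelinase Smpd4, and Hk2 alone had opposite signs. The 114 uncalled features of these 78 genes had a median absolute difference of 0.28, close to the 0.32 of all features tested, against 1.86 for the called ones. For the 8 genes of this kind with the largest differences (Zfp292, Galnt13, Cald1, Fem1c, Sspn, Ascc3, the splicing factor Rbm39 and Ogfrl1), 12 of 13 partner features were not called. Their differences ran from -0.66 to 1.30, with a smallest adjusted p of 0.354 in limma. At the share of 4.98% called over all features, most partner features would be uncalled too. The positions of the probes in their transcripts were not among the sources used here.

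Not every candidate was found at 0.025 pmol. The 29 positive candidates that were not called had a median mean ratio of 0.96 in size at 0.025 pmol, and the 37 negative ones 0.24, against 3.35 and 3.25 among the called candidates. At 2 pmol they were less far behind: the medians were 5.02 for uncalled and 5.65 for called positive candidates, and -3.26 and -4.83 for the negative ones. Pcnx3, a pecanex family membrane protein, had 2.59, 1.69 and 2.83 at 0.025 pmol, against 0.51, 0.67 and 0.90 as the lowest, median and highest at 0 pmol. The groups did not overlap, but the difference of 1.69 did not pass in limma (adjusted p = 0.110), in a gene with a mean of 5.75 at 2 pmol. Nelfb, a subunit of the negative elongation factor, had 1.33, 1.33 and 0.64 at 0.025 pmol, against -0.36 to 0.51 at 0 pmol (difference 0.94, adjusted p = 0.380). Ino80, a chromatin remodelling ATPase, had 1.87, -0.78 and -0.14 at 0.025 pmol, against -0.35 to 0.17 at 0 pmol, with a mean of 6.24 at 2 pmol. Its sign was not the same on the 3 arrays, and its paired spots on replicate 3 read 0.84 and -1.12.

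On the negative side the uncalled candidate with the largest ratio at 2 pmol was Tcra, the T-cell receptor alpha gene, with a mean of -6.21 there. Its ratios were -0.20, -1.01 and 1.22 at 0.025 pmol, against -0.28 to 0.79 at 0 pmol, so that the groups overlapped (difference -0.32, limma adjusted p = 0.930). It was negative on 38 of the 42 arrays of 0.025 to 1 pmol. Chkb, a choline kinase, had -2.20, -3.29 and -1.67 at 0.025 pmol, against -0.21 to 0.39 at 0 pmol. Its groups did not overlap and its difference of -2.50 missed the threshold narrowly in limma (adjusted p = 0.0530). Rell1, a relative of the TNF receptor protein RELT, and Syncrip, an RNA-binding protein, had differences of -1.32 and -1.42 with adjusted p-values of 0.138 and 0.191 in limma. The uncharacterised 4930581F22Rik had 1.10 (adjusted p = 0.325), with a mean of 5.98 at 2 pmol.

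**Figure D3:**
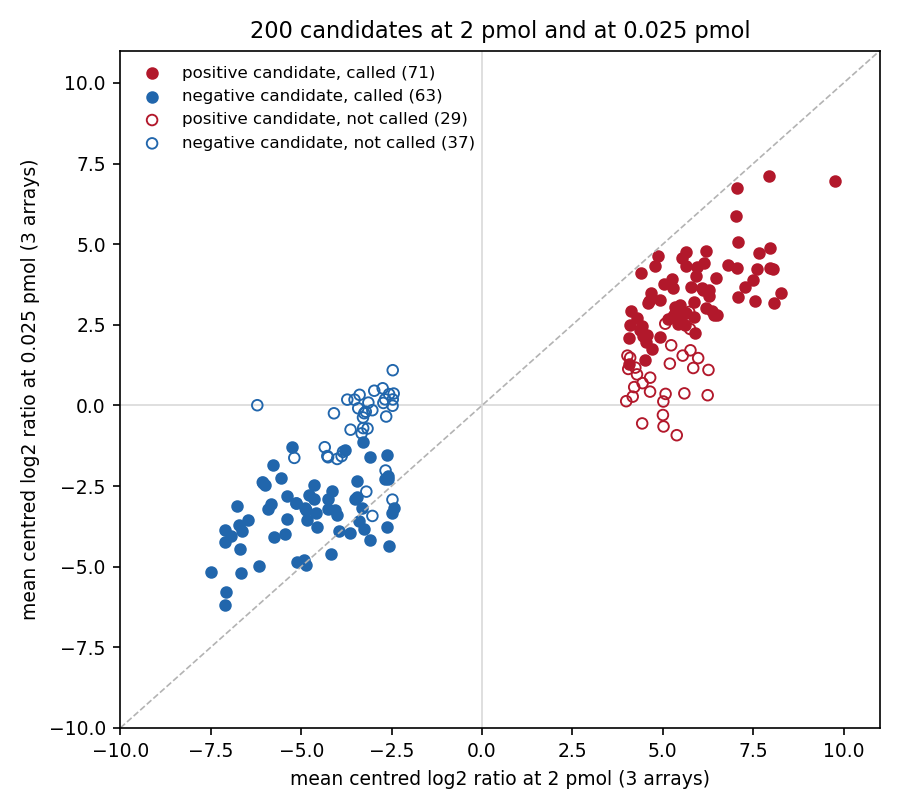
Mean centred log2 ratio at 0.025 pmol (vertical axis) against the mean at 2 pmol (horizontal axis) for the 200 candidates, filled where limma called the difference between 0.025 and 0 pmol. The dashed line marks equal values. Most points lie nearer 0 at 0.025 pmol, and all 12 that lie farther out than at 2 pmol are negative candidates.

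Over the 200 candidates, the median ratio of the mean at 0.025 pmol to that at 2 pmol, both on the log2 scale, was 0.526. In 17 candidates the mean at 0.025 pmol had the sign opposite to that at 2 pmol. None of the positive candidates and 12 of the negative ones lay farther from 0 at 0.025 than at 2 pmol.

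Of the 394 called features, 260 were not candidates, 61 positive and 199 negative. They made up 3.37% of the 7704 features outside the candidate set. Some lay just outside the threshold of the set or missed its rule on the 2 pmol arrays. Tcea3 had 4.46, 3.04 and 4.04 at 0.025 pmol, against -1.39 to 0.40 at 0 pmol, with a mean of 3.47 at 2 pmol. Usf1, a helix-loop-helix transcription factor (difference 3.20), Fhod1, a formin (2.94), and Ctbp2, a transcriptional corepressor (3.17), had means of 3.89, 3.76 and 3.15 at 2 pmol. The call of Fhod1 was lost without 0.025 pmol replicate 3 (2.05, adjusted p = 0.388). Slc25a44 had a ratio of the other sign on 1 of the 3 arrays at 2 pmol, and 2210016L21Rik was measured on 2 of them.

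Over the 199 negative calls outside the candidates, the median ratio at 2 pmol was -0.17, and 133 were negative there. Over the 61 positive ones it was 0.87, and 47 were positive there. The median ratio of the 199 was -0.93, -2.25 and -1.97 on replicates 1 to 3 at 0.025 pmol, and between -0.18 and 0.03 on the 6 arrays at 0 pmol. So replicate 1 was less far from 0 than replicates 2 and 3. Of the 199, 118 lay in 4 of the 48 print blocks: 36 in block 24, 32 in block 32, 29 in block 28 and 21 in block 20. How the blocks are arranged on the slide is not stated in the sources used here. Over all features of those blocks that were not candidates, called or not, the medians were -0.16, -0.18 and -1.08 on replicates 1 to 3 at 0.025 pmol, and between -0.04 and 0.23 at 0 pmol. On all 3 arrays these medians were below the array median of 0, and replicate 3 was the lowest. With the 4 blocks left out, an alternative chosen after their calls had been seen, 213 of 7247 features were called, 101 positive and 112 negative, and 106 of them were candidates. With each print block centred on its own median instead, 286 features were called, 117 positive and 169 negative, and 126 candidates were called. The part of the blocks in the single calls was not tested.

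**Figure D4:**
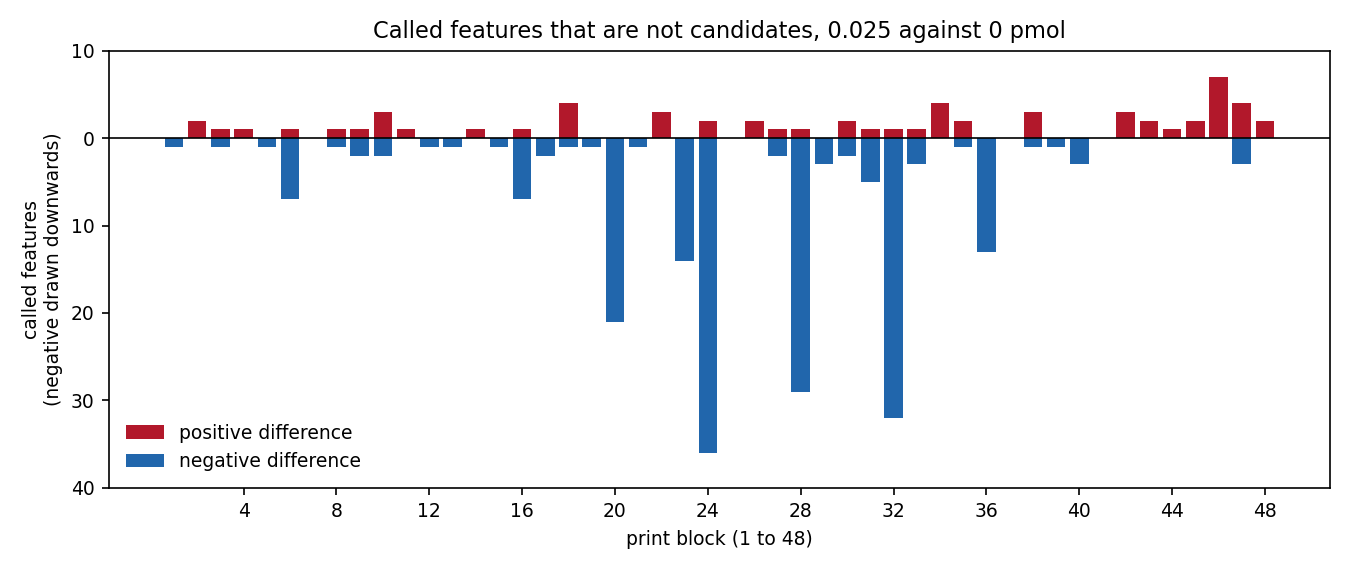
Number of called features that are not candidates in each of the 48 print blocks (horizontal axis), with positive differences drawn upwards and negative ones downwards. Blocks 20, 24, 28 and 32 hold 118 of the 199 negative calls, and 4 of the 61 positive ones.

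Within blocks, called features were also counted around the candidates, along the printed columns and rows. Of the neighbours of a candidate that were not candidates themselves, 9.40% were called with the sign of the candidate at distance 1 in the column, 8.27% at distance 2 and 5.13% at distance 3. With the opposite sign the shares in the column were 2.68%, 3.54% and 4.27%, so that at distance 3 the signs were nearly equal. In the same printed row the shares were 3.61%, 2.41% and 1.94% with the sign of the candidate and 3.33%, 1.81% and 1.94% with the opposite sign. Over all features that were not candidates the share called in either direction was 3.37%. Candidates were spread unevenly: 5 of the 22 columns held 58% of them and 24.2% of the features. Whether the shares near candidates differ from those of their whole columns was not tested. Neighbouring candidates in a column had the same sign in 24 pairs and the opposite sign in 4, and in a row the counts were 3 and 3. A run in column 4 of block 6, chosen after its values had been seen, kept the sign of its candidates past distance 3. It is a single example, and the shares above do not reach so far. Below Nf1, the Ras-inactivating neurofibromin (difference 0.37), stood Slc7a1 (-4.43) and Ascc3 (-4.35), both candidates, and then spot 1896 (-3.69) and Ect2, an exchange factor of cytokinesis (-3.73), which were not. The differences further down the column were -2.34 for the replication factor subunit Chtf18, -2.24 for Olfml2a and -1.74 for the activin receptor Acvr2a, the last with an adjusted p of 0.0508 in limma. Ect2 had ratios of -2.12, -3.89 and -3.52 at 0.025 pmol, against 0.01 to 1.46 at 0 pmol, but a mean of -0.44 at 2 pmol. Rbm39, called at 1 of its 4 probes, had -2.96, -5.96 and -4.70 at 0.025 pmol, against -0.39 to -0.06 at 0 pmol, with -1.79 at 2 pmol. Its call was lost without 0.025 pmol replicate 2 (limma adjusted p = 0.0643).

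The pathway and cell type lists hold from 1 to 31 features each, and their counts stand beside the 4.98% called of all features. Of 18 features for B-cell receptor and Tec-family kinase signalling, 2 were called, which is 11.1%. Both were negative and both candidates: Tec, and Cd22, an inhibitory co-receptor of B cells. Cd22 had -2.96, -2.78 and -3.90 at 0.025 pmol, against -0.22 to 0.54 at 0 pmol (difference -3.42), and its paired spots on replicate 2 read -4.57 and -0.98. Its call was lost without replicate 3 (adjusted p = 0.0671). Of 31 features for cAMP and protein kinase A signalling, Prkaca alone was called (3.23%). The median differences of these lists, 0.01 and -0.10, were close to the 0.04 of all features. Of 16 cell cycle features, 1 was called (6.25%), the repressor E2f4 (4.80, 5.15 and 4.70 at 0.025 pmol, against 0.53 to 0.83 at 0 pmol). Its call was lost with scaled arrays (adjusted p = 0.0953). Of 6 oxidative phosphorylation features, 1 was called (16.7%), the complex I subunit Ndufa2, with a difference of -3.34.

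Of 12 glycolysis features 3 were called (25%), the 2 probes of Hk2 and Pfkp, a phosphofructokinase that was no candidate. Pfkp had -0.38, -3.09 and -1.11 at 0.025 pmol, against -1.10 to 1.07 at 0 pmol, so that its groups overlapped. Its difference of -1.52 (limma adjusted p = 0.0412) was -0.73 without replicate 2 (adjusted p = 0.533), and the call was also lost without replicate 3 and without 0 pmol replicate 1, 2, 4 or 5 (0.0527 to 0.133). The list had a median of -0.58, with 6 of 12 features at an unadjusted p under 0.05, beside 1277 of 7904 over all features. No feature was called for immunoglobulins and plasma cells (1 feature, 0 at an unadjusted p under 0.05), for protein folding and secretion (9, with 0) or for cytosolic ribosomal proteins (4, with 1). Of 7 features for markers of T, NK and myeloid cells, 1 was called (14.3%): Cd3e, a subunit of the T-cell receptor complex, whose groups overlapped. It had 0.03, -1.0005 and 0.11 at 0.025 pmol, against -2.28, -1.64 and -0.78 as the lowest, median and highest of 5 arrays at 0 pmol, so its difference of 1.35 came from negative ratios without spike. The call was lost without 0.025 pmol replicate 1 (adjusted p = 0.0646) and without replicate 3 (0.132). Of 11 features for liver, muscle, nerve and stroma, 1 was called (9.09%), the keratin Krt18, with 2.74, 2.19 and 2.46 at 0.025 pmol, against -0.13 to 0.37 at 0 pmol.

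Of the 98 features whose symbol begins with Zfp and a number, 9 were called, 3 positive and 6 negative. That is 9.18%, beside 4.98% of all features. Their median difference was 0.04, and 6 were candidates, of which 4 were called. Those 4 were Zfp292, Zfp330, Zfp644 (2.87) and Zfp248 (2.26), the last not without 0.025 pmol replicate 3 (adjusted p = 0.161). Zfp330 had -3.86, -5.47 and -3.39 at 0.025 pmol, against 0.00 to 0.31 at 0 pmol. Zfp644 had 4.17, 2.03 and 3.34 at 0.025 pmol, against -0.08 to 0.82 at 0 pmol.

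Along the amounts, the mean ratios of Zfp292, Tec and Prkaca at 0.025 pmol lay within the range of their means at higher amounts. The mean of Tlr1 was nearer 0 at 0.025 pmol (4.22) than at any higher amount (5.08 to 8.09), and that of 2210016L21Rik was farther from 0 (-4.98) than at any higher amount (-3.13 to -4.22). Zfp292 at spot 12102 averaged -0.54 ± 0.35 at 0 pmol (SD, n = 6), 7.13 ± 0.60 at 0.025 pmol (SD, n = 3), 6.27 ± 1.95 at 0.05 pmol (SD, n = 6), 5.73 ± 2.29 at 0.1 pmol (SD, n = 6) and 7.93 ± 0.24 at 2 pmol (SD, n = 3). Its mean thus lay at 5.15 or above at every spiked amount, with no steady increase, and at 1 pmol it was 14.1 on 2 measured arrays. Tec averaged -0.99 ± 0.89 at 0 pmol, -6.18 ± 0.89 at 0.025 pmol, -6.72 ± 0.94 at 0.05 pmol and -7.12 ± 0.64 at 2 pmol. Prkaca averaged 0.55 ± 0.22 at 0 pmol, -4.44 ± 1.14 at 0.025 pmol, -3.80 ± 2.24 at 0.05 pmol and -6.70 ± 0.12 at 2 pmol. In all of these probes the step between the means at 0.025 and 0.05 pmol was smaller than the standard deviation at 0.05 pmol.

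The lowest amount was also set against the next ones, which share none of the 0 pmol arrays. The candidate separation was 2.71 ± 0.45 at 0.025 pmol (SD, n = 3), 2.59 ± 0.82 at 0.05 pmol (SD, n = 6) and 2.56 ± 0.85 at 0.1 pmol (SD, n = 6). The difference of 0.025 minus 0.05 pmol was 0.12, with a 95% interval of -1.11 to 1.34, and that of 0.025 minus 0.1 pmol 0.15, with an interval of -1.12 to 1.42. Neither passed an exact two-sided permutation test over arrays (p = 0.833 for each, 0.833 after adjustment over the 2 comparisons, smallest possible p 0.0119). The intervals leave room for differences in either direction of the size of the spread. The 6 arrays at 0.05 pmol split by replicate number. The 2 spots of each probe correlated there at r of 0.925 to 0.958 on replicates 1 to 3 and of 0.455 to 0.691 on replicates 4 to 6. At 0.1 pmol the 2 ranges were 0.938 to 0.955 and 0.402 to 0.520. The part of this difference in the comparisons of both amounts was not tested. Against replicates 1 to 3 at 0.05 pmol the separation at 0.025 pmol was lower by a difference of -0.53 (exact permutation p = 0.100), and against replicates 4 to 6 higher by 0.76 (p = 0.300), where 3 against 3 arrays cannot give a p below 0.100. Against 0.1 pmol the values were -0.61 and 0.92, both with an exact permutation p of 0.100.

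Between 0.025 and 0.05 pmol limma called 23 of 7904 features (0.291%), 1 positive and 22 negative, with 805 at an unadjusted p under 0.05. None of the 200 candidates was among the 23, and the median difference was -0.12 over the positive and 0.09 over the negative candidates. This comparison and that with 0 pmol share the 3 arrays at 0.025 pmol and are not independent. Of the 23, 21 were also called between 0.025 and 0 pmol. The positive one was Wac, an adaptor of transcription-coupled histone ubiquitination, which had 0.73 and 1.61 on 2 measured arrays at 0.025 pmol, against a mean of -0.79 ± 0.69 at 0.05 pmol (SD, n = 6). Kif21a, a kinesin, had -0.94, -6.02 and -2.98 at 0.025 pmol, against -0.44 ± 0.47 at 0.05 pmol (SD, n = 6). Hs3st2, a heparan sulfate sulfotransferase, had -0.68, -6.75 and -1.65 at 0.025 pmol, against -0.59 ± 0.49 at 0.05 pmol (SD, n = 6). In both, replicate 2 was far below the other arrays. Col5a2, a fibrillar collagen chain, had -5.90 and -1.995 on 2 measured arrays at 0.025 pmol, against -0.40 ± 1.05 at 0.05 pmol (SD, n = 5). Kif21a, Hs3st2 and Col5a2 lie in blocks 24, 32 and 28, and without blocks 20, 24, 28 and 32 the count was 2. Without 0.025 pmol replicate 2 it was 6, and without replicate 1 it was 120. Against 0.05 pmol replicates 1 to 3 it was 0, and against replicates 4 to 6, whose paired spots correlated less, it was 947.

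The 3 arrays at 0.025 pmol were also read without the 0 pmol arrays, against a ratio of 0. By limma, the mean at 0.025 pmol differed from a ratio of 0 in 1843 of 7904 features (23.3%), 767 positive and 1076 negative. Without spike a probe need not read 0: the mean at 0 pmol was -1.63 for Cd3e, -1.33 for Cald1 at spot 757 and 0.70 for E2f4. The count does not separate such offsets from a spike. The standard deviation of the features that are not candidates was 0.61, 1.01 and 0.89 on the 3 arrays at 0.025 pmol, and between 0.49 and 0.76 on the 6 at 0 pmol.

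Different ways of ranking the features placed candidates at the ends of the list to different extents. Of the 20 features formed by the first 10 at each end, 18 were candidates of the right sign when ranked by the difference of the means, by the mean at 0.025 pmol alone, by a moderated t from the 9 arrays or by the smallest value on the 3 arrays. A moderated t from all 51 arrays placed 17 there and an unmoderated t 16. Among the first 100 at each end, 200 features in all, the counts were 127 for the difference, 125 for the mean alone, 127 for the smallest value, 121 for the moderated t from the 9 arrays, 110 for the unmoderated t and 105 for the moderated t from 51 arrays. As the candidates were themselves chosen by their mean ratio at 2 pmol, this favours measures of size, and the true spiked genes are not known here.

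**Figure D5:**
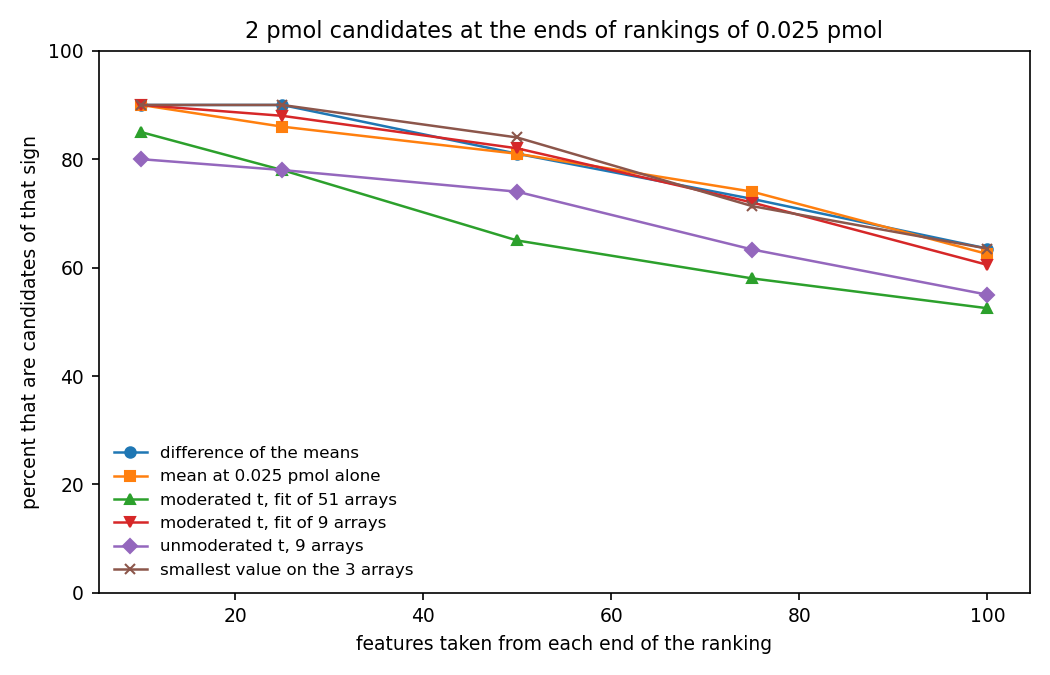
Percent of the features taken from both ends of a ranking that are candidates of that sign (vertical axis), against the number taken from each end (horizontal axis), for 6 measures. At 100 from each end the percentages run from 52.5 for the moderated t from 51 arrays to 63.5 for the difference of the means and the smallest value.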

How the data were processed

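The authors deposited 1 log2 ratio per spot for each of the 51 arrays. The log base was read from the values, and the authors' background, filtering and normalisation steps are not stated in the sources used here. Scanner intensities were not analysed here. Values of 16.61 or more, an upper limit reached by 1074 values over all arrays, were treated as missing. An array has 16896 spots, in 48 print blocks of 352 with 22 to a row. Each probe occupies 2 spots 22 positions apart, whose values were averaged. Control positions (11 per block, 528 probes) were left out, which left 7920 features, 5348 of them with 1 symbol from the platform annotation, updated with RefSeq names of GRCm38.p6 (10766 spots matched). Features with no symbol are named by their first spot.

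Arrays were each centred on their own median. Under R 4.3.3, limma 3.58.1 fitted all 51 arrays with 1 mean per amount, moderated by empirical Bayes, with two-sided tests and at least 2 measured arrays per group. Standard errors are those of the fit. Called means a Benjamini-Hochberg adjusted p under 0.05 over all features tested. The separation was compared with exact permutation tests, and its intervals are those of a t distribution with pooled spread. The fit was also run on simulated data with independent noise, without the block and column patterns of the arrays, and its outcome is not used here. Figures were drawn with matplotlib 3.10.9, and values computed with pandas 2.3.3, numpy 2.4.6 in Python 3.11.15, with version 1.17.8 of data.table for reading in R.

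The members, lists and tests were chosen with earlier results of these data known. Named were the 12 largest called differences each way with a symbol and groups that did not overlap (at most 2 without a symbol each way), Zfp292, Tec and Prkaca, the 4 uncalled candidates each way that were largest at 2 pmol, the 4 largest called features each way that were not candidates, up to 4 called members of a list, up to 8 genes with several features, and 3 each way against 0.05 pmol. The run in block 6 and the genes Ppp1r10 and Smpd4 were chosen after their values had been seen. The number of arrays limits the precision.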

Additional observations from a re-analysis of the deposited data

Results flagged for a closer look

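Among 66 groups of 4 to 10 arrays that were looked at, 3 held an array far from the others, where chance alone gives about 1 in 20 groups. Ascc3 at spot 1852 had a ratio of 2.46 on 0 pmol replicate 5, against -0.01 to 0.27 on the other 4 measured arrays at 0 pmol. Ino80 at spot 9158 had -0.35 on 0 pmol replicate 3, against -0.01 to 0.17 on the other 5. At 0.1 pmol, replicate 4 measured 15338 spots, fewer than the other arrays at that amount. Ascc3 was called, and its 3 arrays at 0.025 pmol lay below all measured arrays at 0 pmol.

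Of the 11 control positions, which entered no comparison, 4 had 0.025 pmol arrays that all lay below the 0 pmol arrays. Each value is the mean over the 48 blocks of an array. Of the single features tested, 5.79% lay below without overlap. That share is not of like kind, since each control value is such a mean. The difference of 0.025 minus 0 pmol was -0.46 for the position in row 2 and column 1, -1.49 for row 2 and column 22, -1.57 for row 3 and column 22, and -1.60 for row 4 and column 22. What these positions hold is not stated in the sources used here. The Gapdh control had means of 0.77 ± 0.58 at 0.025 pmol (SD, n = 3) and -0.25 ± 1.05 at 0 pmol (SD, n = 6), and the Pdia3 control 0.61 ± 0.52 and 0.17 ± 0.55. Both overlapped between the groups. At 0 pmol, Gapdh read 0.54 to 0.89 on replicates 1 to 3 and -1.29 to -1.11 on replicates 4 to 6. Pdia3 read -0.46 to -0.17 and 0.57 to 0.79 on these sets. At 0.025 pmol Gapdh (0.19 to 1.34) thus overlapped replicates 1 to 3 only, and Pdia3 (0.05 to 1.10) replicates 4 to 6 only.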

How the results depend on the processing

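The count of 394 features between 0.025 and 0 pmol was 136 without centring, 74 with arrays scaled to one spread, 62 with a minimum size of 1 log2 unit, 1843 against a ratio of 0 and 213 without blocks 20, 24, 28 and 32. Leaving out 1 array gave 204 to 444. The 134 candidates called became 20 with scaled arrays and 84 of 100 with 50 candidates each way, and 97 to 131 with 1 array left out. The separation of 2.71 was 2.25 with scaled arrays, 3.42 with 50 and 1.39 with 200 candidates each way, and 2.49 to 2.94 with 1 array left out. The 23 features between 0.025 and 0.05 pmol became 14 with the replicate block, 7 with centring per print block, 15 with features measured on every array, 11 with the second spots, 12 with array weights, 4 with scaled arrays, 2 without the 4 blocks, 947 against 0.05 pmol replicates 4 to 6, and 0 without centring, with replicates 1 to 3 of both groups or with the 9 arrays of both groups alone; leaving out 1 array gave 6 to 120. The 1843 features against a ratio of 0 became 4125 without centring, 1051 with scaled arrays and 815 to 1505 with 1 array left out. The 19 called members of the lists became 10 without centring, 12 with replicates 1 to 3 of both groups, 4 with scaled arrays, 6 with a minimum size, 50 against a ratio of 0, 11 without the 4 blocks and 11 to 20 with 1 array left out. The cause of these changes was not tested.

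Replicate numbers are shared between the groups. Deviations of same-numbered arrays among replicates 1 to 3 correlated at 0.12, -0.03 and 0.01, and those of other-numbered arrays at -0.13 to 0.08. With so few arrays, these values cannot decide whether the numbers pair the arrays. With the replicate block the main count was 304, of which 117 were candidates. Differences of the other sign arose for Cd3e (-0.29 against a ratio of 0), Ino80 (-0.45 without 0.025 pmol replicate 1) and Tcra (0.19 without 0.025 pmol replicate 2, 0.37 without centring, 0.0058 against a ratio of 0). The probe of Zfp292 at spot 2524 gave -0.13 without 0.025 pmol replicate 2, -0.0023 without 0 pmol replicate 2, -0.14 against 0 pmol replicates 4 to 6, -0.074 with scaled arrays and -0.23 with array weights. With 1 array left out the differences ran from -0.13 to 0.35 for that probe, from -0.45 to 0.87 for Ino80 and from -0.93 to 0.19 for Tcra. For the 26 leading features, 601 of 614 recomputed values kept sign and call, 13 lost the call and 0 changed sign. Counted by feature, 15 of the 26 lost no call. These features were chosen for large called differences in the same data, and most settings share most arrays, so calls were likely to be kept. With scaled arrays 28 of all named differences lost their call.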
